A study of Mus musculus with 12 samples.

Results

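The share of newly made RNA at 800 µM 4-thiouridine (4sU) was compared between 2 ways of converting the label, in methanol-fixed cells and in tubes on isolated RNA. The comparison rests on 4 of the 12 libraries of the study, fixed cells A and B against tubes A and B, and on the 5885 of 15217 genes that had at least 100 reads in each of the 4. All groups were wild-type NIH-3T3, a long-established line of mouse embryo fibroblasts, grown in DMEM with NCS. They received 800 µM or 200 µM 4sU for 2 h, or none, per the labels. Conversion used iodoacetamide, at 50 °C for 30 min in fixed cells and at 37 °C for 1 h in tubes, so place, temperature and time of the reaction differ together and cannot be told apart. The labels number 2 libraries in each of the 6 groups and do not say whether A and B were separate cultures. The p-values below therefore measure the spread between these libraries, which may be technical.

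During labelling, transcription takes up 4sU in the place of uridine. In SLAM-seq, iodoacetamide alkylates the thiol of 4sU, so that reverse transcriptase pairs it with G and the read carries a T-to-C mismatch; reads with such mismatches mark RNA made during labelling. The new-to-total ratio of a gene is the share of its RNA made in the labelling window. It is high for short-lived RNAs such as those of immediate early genes and low for long-lived RNAs such as those of ribosomal proteins.

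Deposited read totals were 5840808 and 6359853 in the fixed libraries, and 7504638 and 6654809 in the tube libraries, and the 5885 genes held 93.9% to 96.1% of them. A further 109 genes reached 100 reads in both fixed but not in both tube libraries, and 1258 did so in both tube but not in both fixed libraries, so the minimum left out more genes that were low in fixed cells. Genes whose lowest count was 100 to 109 (n = 269) had a median difference in the ratio of -0.41 on the logit scale, and those at 90 to 99 (n = 298), just below the minimum, one of -0.38. Of 11 fibroblast markers 10 passed the minimum, and the list summed to 20025 to 23364 CPM (counts scaled to a common library total) in fixed cells and 18200 to 19080 CPM in tubes. S100a4 and Vim made up most of this sum and were higher in fixed cells (S100a4 13430 and 10598 CPM, against 7358 and 7601 CPM in tubes). Col1a1, Col1a2, Col3a1 and Fn1 were lower in fixed cells (Col1a1 537 and 1118 CPM, against 2420 and 2164 CPM). The values of the remaining markers overlapped between fixed cells and tubes. The 12 markers of other cell types found in the table, of 21 listed, summed to 14.4 to 20.6 CPM in fixed cells and 15.1 to 16.6 CPM in tubes, and none passed the minimum. Gfap was at 0 in all 4 libraries.

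Fixed library A stood apart before any comparison was made. Its median 90% posterior interval of the ratio was 13.6 percentage points wide, against 8.44 in fixed library B, 7.80 in tube A and 8.34 in tube B. The summed alpha and beta values behind the ratio, which set how sharp the posterior is, came to a median of 0.296 per read in fixed A, and to 0.657, 0.664 and 0.661 per read in fixed B, tube A and tube B. Results are therefore given with and without it. Without it, the remaining fixed library is assumed to vary as the tube libraries do.

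The ratio was lower in fixed cells than in tubes across most genes, and the fixed libraries also differed from each other. The median ratio was 25.9% in fixed A and 32.1% in fixed B, against 36.4% in tube A and 36.6% in tube B. Both fixed medians lay below both tube medians, and the gap between the fixed libraries was far wider than that between the tubes. The means were 29.0% ± 4.37 in fixed cells and 36.5% ± 0.141 in tubes (SD, n = 2 each), a difference of -7.50 percentage points. A two-sided exact permutation test gave p = 0.333, the smallest that the 6 arrangements of these libraries allow. Summed over genes, new RNA made up 19.9% and 25.2% of the reads in fixed cells, against 31.1% and 30.9% in tubes.

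Fixed A lay below the tubes at each quantile compared, and fixed B did so up to the upper quartile. The lower quartile of the ratio was 14.6% and 18.7% in fixed cells, against 21.9% and 22.3% in tubes. The upper quartile was 46.0% and 54.8% in fixed cells, against 58.1% and 58.7% in tubes. At the 90th percentile, fixed A had 71.2% and fixed B 83.3%, against 81.4% and 81.7% in tubes, so fixed B was there above both tubes. With constant synthesis and first-order decay, the median ratios correspond to half-lives of 4.62 and 3.58 h in fixed cells, against 3.06 and 3.04 h in tubes. At 200 µM the median ratio was 35.7% and 34.9% in fixed cells, against 40.1% and 42.7% in tubes.

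**Figure D1:**
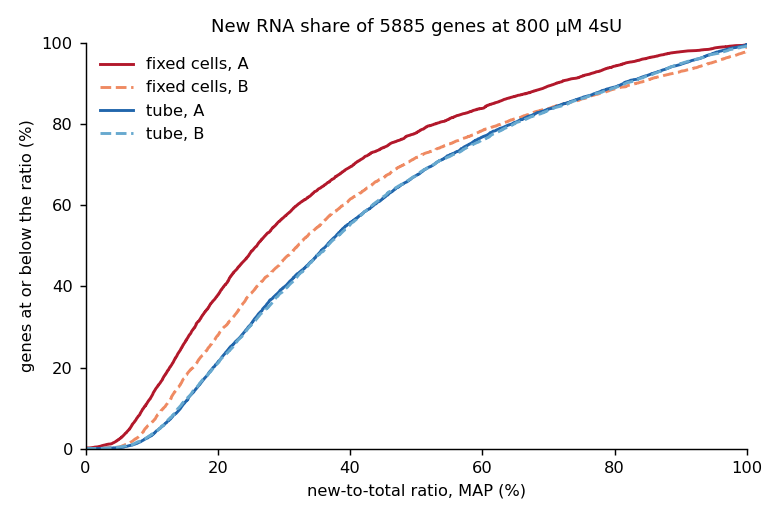
Cumulative share of the 5885 genes (y axis, %) at or below each new-to-total ratio (x axis, %), 1 line per library at 800 µM 4sU. The tube lines overlie each other, fixed A lies to their left over nearly the whole range, and fixed B lies to their left at the median (32.1% against 36.4% and 36.6%) and meets them above the upper quartile.

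Gene by gene, no difference in the ratio passed the test. With limma on the logit scale, 0 of 5885 genes (0%) were called at a Benjamini-Hochberg (BH) adjusted p under 0.05, and the smallest adjusted p was 0.281. At an unadjusted p under 0.05 there were 869 genes, of which 848 were lower and 21 higher in fixed cells. The median logit difference was -0.31 (quartiles -0.54 and -0.10), and 4906 genes (83.4%) had a negative one. With the deposited alpha and beta as precision weights, limma called 2 genes higher and 203 lower in fixed cells. The median logit difference was -0.14 without fixed A and -0.50 without fixed B.

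Both fixed values lay below both tube values at 2851 genes (48.4%) and above them at 266 (4.52%). By the deposited 90% posterior intervals, both fixed intervals lay wholly below both tube intervals at 605 genes (10.3%) and wholly above them at 5. Fixed B taken alone had its interval below both tubes at 822 genes (14.0%) and above both at 125 (2.12%). The intervals carry the error of the estimate within a library and not that between libraries: they were apart between fixed A and fixed B at 1693 genes (28.8%), lower in A at 1609 of them, and between tube A and tube B at 707 genes (12.01%). The ranking of genes differed less than their level. Spearman's rho of the ratio across the 5885 genes was 0.926 between the fixed libraries, 0.964 between the tube libraries, 0.908 and 0.909 between fixed A and the tubes, and 0.948 and 0.947 between fixed B and the tubes, as a description of genes that share libraries and not as a test.

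Ribosomal protein genes, whose mRNAs are long-lived, had low ratios throughout and lower ones in fixed cells. The median over 82 measured genes of 83 in the table was 8.51% and 10.5% in fixed cells, against 13.1% and 12.9% in tubes. Both fixed values lay below both tube values at 77 of the 82 (93.9%), beside 48.4% of all genes, and fixed B alone lay below both tubes at the same number. Over all genes, the share below was 37.8% in the 1177 with the least total RNA without 4sU and 59.4% in the 1177 with the most. The median logit difference of the 82 was -0.34, beside -0.31 for all genes, and -0.24 without fixed A, beside -0.14. All 82 had a count that was not whole in at least 1 library, and how reads shared with their pseudogene copies were divided is not recorded in the labels or the table.

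Rpl10a, a protein of the large ribosomal subunit (GRCm38 chromosome 17, 28328471 to 28331033, plus strand, protein coding), had ratios of 10.5% and 15.4% in fixed cells, against 27.2% in each tube library. Its 4 posterior intervals were narrow, reaching at most 16.2% in fixed cells and at least 26.1% in tubes, so the procedures did not overlap. The logit difference was -0.94 (SE 0.22), with a BH-adjusted p of 0.281 by limma. Rps29, a small-subunit protein, had the lowest mean ratio of the group, 5.56% and 5.45% in fixed cells, against 7.39% and 7.10% in tubes. Rpl8 was the 1 member with both fixed values above both tube values, with 47.0% and 29.3% in fixed cells, against 27.2% and 28.3% in tubes, and fixed A far above the others.

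Other housekeeping groups showed the same order of the libraries. Nuclear genes of oxidative phosphorylation, the respiratory chain and ATP synthase, had a median ratio of 8.60% and 10.4% in fixed cells, against 13.0% and 13.8% in tubes, and 47 of 74 had both fixed values below both tube values. Mitochondrial ribosomal proteins had 20.95% and 24.1% in fixed cells, against 28.3% and 28.9% in tubes (38 of 70 below, or 54.3%, near the 48.4% of all genes). Proteasome subunits, the protein-degrading complex, had 16.4% and 19.1% in fixed cells, against 22.9% and 22.5% in tubes (25 of 35 below).

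Single genes of these groups differed by more than the median of their group. Ndufb4, a subunit of respiratory complex I, had 6.20% and 8.01% in fixed cells, against 22.7% and 16.8% in tubes. Mrps10 of the mitochondrial ribosome had 9.90% and 13.5% in fixed cells, against 23.3% and 24.6% in tubes. Psma3, a core proteasome subunit, had 19.2% and 24.6% in fixed cells, against 38.4% and 35.9% in tubes. In each of the 3 the fixed and tube values did not overlap, and none passed the test, with the same adjusted p of 0.281 by limma for Ndufb4 and Mrps10 and 0.294 for Psma3.

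Cell-cycle genes lay in the middle of the range. Mitosis and spindle genes had a median ratio of 33.9% and 38.4% in fixed cells, against 44.5% and 45.2% in tubes, with both fixed values below both tube values at 19 of 27 and above them at none. Their median logit difference was -0.48, and -0.31 without fixed A. DNA replication and S phase genes had 24.2% and 31.5% in fixed cells, against 36.5% and 36.2% in tubes, with 20 of 36 below (55.6%, near the 48.4% of all genes). In this group stood Pola1, the catalytic subunit of DNA polymerase alpha, at 14.4% and 11.6% in fixed cells, against 33.0% and 39.2% in tubes. Its fixed values were close together and well under the tubes, and its logit difference was -1.33 (SE 0.21, BH-adjusted p = 0.281 by limma). Tyms, thymidylate synthase, had 18.2% and 33.8% in fixed cells, against 51.6% and 53.3% in tubes. Anln, the actin-binding protein anillin of the cleavage furrow, had 22.9% and 28.1% in fixed cells, against 47.7% and 46.3% in tubes, and Cenpa, the centromeric histone H3 variant, had 18.2% and 19.4% in fixed cells, against 29.8% and 30.9% in tubes.

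SR splicing factors and Clk kinases, many of whose RNAs turn over quickly, had a median ratio of 39.5% and 57.5% in fixed cells, against 58.5% and 61.5% in tubes. Both fixed values were below both tube values at 11 of 17 (64.7%), beside 48.4% of all genes. They were above both tubes at none, beside 4.52% of all genes. Srsf5 (GRCm38 chromosome 12, 80945504 to 80950507, plus strand, protein coding) had 30.8% and 40.4% in fixed cells, against 56.2% and 57.1% in tubes, with all fixed intervals under all tube intervals. Tra2a, a splicing activator, had 39.5% and 62.9% in fixed cells, against 77.7% and 78.0% in tubes. Clk1, a kinase of SR proteins, was at 100% in all 4 libraries, where the ratio can show no difference.

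The short-lived groups split the fixed libraries. Immediate early genes, the transcription factors and signalling genes that respond first to growth factors, had a median ratio of 83.4% in fixed A and 99.6% in fixed B, against 94.6% and 95.1% in tubes. Fixed A was the lowest of the 4 libraries at 20 of 28 genes, near its share of all genes (4253 of 5885). Fixed B was above both tubes at 16 of 28, beside 1334 of all 5885 genes. Both fixed values lay below both tube values at 2 (Jund and Maff), beside 48.4% of all genes. They lay above both tubes at 4 (Ier2, Zfp36l1, Dusp5 and Fosl1), beside 4.52% of all genes. Of the 1177 genes with the highest mean ratio at 200 µM, 22.3% lay below and 8.67% above. Here and below, genes that make up a count of 5 or fewer are named after their values were seen. Kruppel-like transcription factor genes had 79.9% and 98.7% in fixed cells, against 93.9% and 93.4% in tubes, with 0 of 8 below and 1, Klf5, above. The median logit difference of immediate early genes was -0.23 with both fixed libraries and 0.69 without fixed A, and at 200 µM it was 1.19. For Kruppel-like factors it was -0.39, 1.18 without fixed A and 1.38 at 200 µM. The medians at 200 µM covered only members with at least 100 reads in all 8 libraries with 4sU. The ratio was held 0.005 from 0 and 1 to keep the logit finite, so the size of these differences depends on that bound. At 800 µM, 37 genes in fixed A and 143 in fixed B were at or above the upper bound, against 48 and 61 in tubes. At 200 µM there were 300 and 278 such genes in fixed cells, against 98 and 133 in tubes.

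Fosl1, a Fos-family partner in the AP-1 transcription factor (GRCm38 chromosome 19, 5447547 to 5455946, plus strand, protein coding), had 100% and 99.3% in fixed cells, against 85.9% and 86.0% in tubes. Its 90% intervals were 95.05% to 99.9% and 94.1% to 99.7% in fixed cells, against 82.3% to 89.1% and 82.3% to 89.2% in tubes, so here the fixed libraries agreed and lay above. The logit difference of 3.33 (SE 1.02) had a BH-adjusted p of 0.302 by limma and depends on the bound of 0.005 that keeps the logit finite. Exons of Ccdc85b overlap those of Fosl1 on the opposite strand, and it is not given whether the counting used strand. Klf5 had 99.6% and 100% in fixed cells, against 91.7% and 85.7% in tubes. Bhlhe40, a repressor of the circadian clock, went the other way, with 73.6% and 99.3% in fixed cells, against 100% in each tube. Nr4a1, an orphan nuclear receptor, was at 97.8% and 100% in fixed cells, against 100% and 99.1% in tubes.

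Among other short-lived groups, NF-kappaB targets had median ratios of 76.4% and 91.3% in fixed cells, against 93.2% and 91.1% in tubes, and p53 targets had 65.0% and 80.1%, against 74.2% and 73.8% in tubes. Zinc finger genes with a Zfp symbol had 61.5% and 80.8% in fixed cells, against 77.6% and 79.6% in tubes. In all 3 groups fixed A alone lay under both tubes. At a ratio over 90% stood 132 genes in fixed A and 418 in fixed B, against 315 and 304 in the tubes. Myc and Fos missed the minimum: Myc had 74 and 151 reads in fixed cells, against 324 and 219 in tubes, and Fos had 6 and 6, against 33 and 19.

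**Figure D2:**
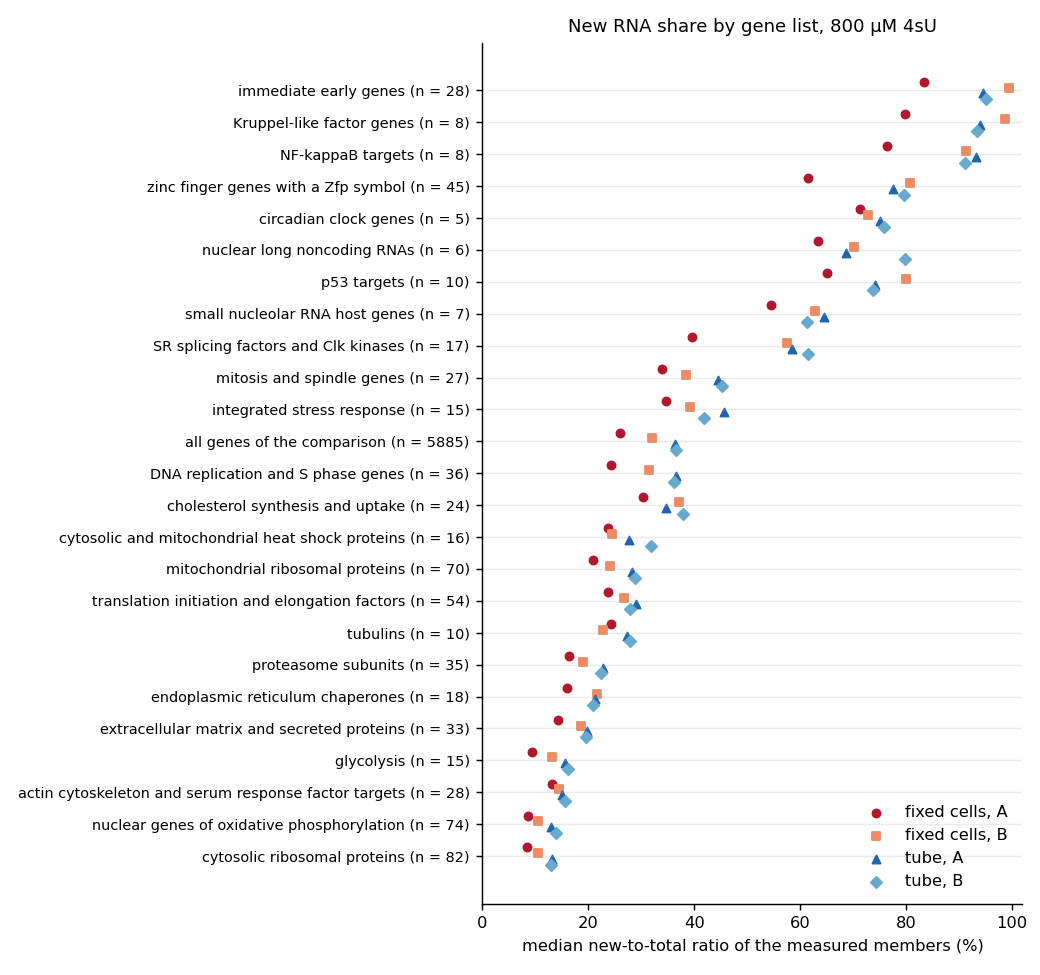
Median new-to-total ratio (x axis, %) of the measured members of each gene list with at least 5 of them (y axis, lists ordered by their tube median), 1 mark per library at 800 µM 4sU. Fixed A is the leftmost mark in all but the tubulins, and fixed B is left of both tubes in, among others, ribosomal proteins (10.5% against 13.1% and 12.9%) and right of them in immediate early genes (99.6% against 94.6% and 95.1%).

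The genes with the smallest p in the ratio were mostly of moderate count. Dctn5, a subunit of the dynein cofactor dynactin (GRCm38 chromosome 7, 122133041 to 122149044, plus strand, protein coding), had 8.51% and 9.96% in fixed cells, against 35.0% and 33.0% in tubes, on 154 to 179 reads a library. Its fixed values were alike and far below the tube values, with a logit difference of -1.62 (SE 0.19, BH-adjusted p = 0.281 by limma). Abcg2, a drug efflux transporter, had 11.3% and 16.02% in fixed cells, against 43.2% and 51.0% in tubes. Tmem150a, a membrane protein gene, had 14.9% and 16.9%, against 54.2% and 43.5% in tubes. Upward, Ubac2 of the endoplasmic reticulum membrane had 14.7% and 20.3% in fixed cells, against 5.09% and 4.89% in tubes, Klhl5 had 35.9% and 33.3%, against 18.2% and 20% in tubes, and Cdca5, the cohesion factor sororin, had 100% in both fixed libraries, against 80.7% and 81.7% in tubes. None of these 6 passed the test, all with the same adjusted p of 0.281 by limma.

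**Figure D3:**
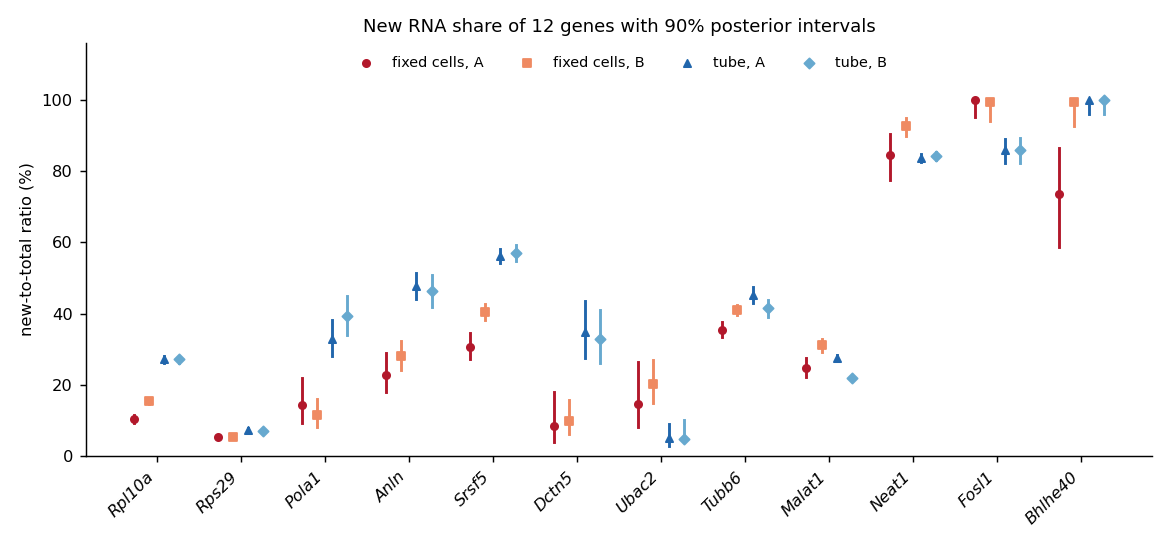
New-to-total ratio (y axis, %) of 12 genes in each library at 800 µM 4sU, with the deposited 90% posterior interval as a bar. Fixed values lie below the tubes for Rpl10a, Pola1, Anln, Srsf5 and Dctn5, above them for Ubac2 and Fosl1, and interleaved with them for Malat1 (24.9% and 31.1% against 27.7% and 22.1%).

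Of the genes looked at as controls, Gapdh, a glycolytic enzyme, had ratios of 6.51% and 8.37% in fixed cells, against 9.89% and 9.22% in tubes. Actb, cytoplasmic actin, had 11.8% and 18.9% in fixed cells, against 14.2% and 14.1% in tubes, so its fixed values stood on both sides of the tubes. Malat1, an abundant nuclear noncoding RNA, had 24.9% and 31.1%, against 27.7% and 22.1% in tubes, with all 4 values interleaved.

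The ratio and the read count together give the amount of new and of old RNA, as the count times the ratio and the count times its remainder, in CPM on a common scale of total RNA. In bulk libraries scaled to their own totals, fewer cells and less RNA per cell cannot be told apart. New RNA was higher in fixed cells at 105 genes (1.78%) and lower at 506 (8.6%) of 5885, by limma at a BH-adjusted p under 0.05, with a median log2 difference of -0.19. Old RNA was higher at 1111 (18.9%) and lower at 236 (4.01%), with a median of 0.28. Scaled on itself, the median of new RNA moved up by 0.19 and that of old RNA down by 0.28 on the log2 scale, and the calls became 324 higher and 413 lower for new RNA and 496 higher and 395 lower for old RNA.

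The counts of calls changed with the library left out. Without tube A, limma called 6 genes higher and 31 lower in new RNA and 0 in old RNA, with 959 genes at an unadjusted p under 0.05; without tube B it called 5 higher and 20 lower in new RNA and 0 in old RNA, with 967 at an unadjusted p under 0.05. Without fixed A there were 496 higher and 965 lower in new RNA and 993 higher and 430 lower in old RNA, and without fixed B 583 and 2176 in new RNA and 1898 and 478 in old RNA. Total RNA of the same libraries, tested with edgeR over 11080 genes, was higher in fixed cells at 1856 (16.8%) and lower at 2033 (18.3%). Among the 5885 genes of the ratio comparison it was higher at 1549 and lower at 1143.

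Most of these calls were also made in cells that had received no 4sU. There, total RNA was higher in fixed cells than in tubes at 1796 of 11080 genes (16.2%) and lower at 1684 (15.2%) by edgeR. Among the 5885 genes, in which new and old RNA were tested, it was higher at 1529 and lower at 1020. Of the 105 genes higher in new RNA at 800 µM, 103 were higher in total RNA without 4sU, and of the 506 lower in new RNA, 404 (79.8%) were lower there. For old RNA the shares were 951 of 1111 (85.6%) among higher genes and 217 of 236 (91.9%) among lower genes. None was called in the opposite direction. New and old RNA were both higher at 91 genes and both lower at 150, while 3 were lower in new and higher in old RNA and 0 the reverse.

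The largest rises in new RNA were seen in genes that also rose in old RNA. Tubb6, a beta tubulin, had 361 and 347 CPM of new RNA in fixed cells, against 111 and 92.2 CPM in tubes, and its old RNA was 654 and 501 CPM, against 134 and 130.04 CPM. Neither pair overlapped, with log2 differences of 1.80 (SE 0.20, BH-adjusted p = 0.0051) in new and 2.11 (SE 0.17, adjusted p = 0.0102) in old RNA by limma. Its ratio was 35.6% and 40.9% in fixed cells, against 45.3% and 41.5% in tubes, and without 4sU its total RNA was higher by 1.59 on the log2 scale. Rraga, the GTPase RagA that carries amino acid signals to mTORC1 (GRCm38 chromosome 4, 86575668 to 86577285, plus strand, protein coding), had 148 and 78.6 CPM of new RNA in fixed cells, against 28.6 and 45.8 CPM in tubes. Fixed A had the highest value of the 4 in both kinds of RNA, with old RNA at 631 and 234 CPM in fixed cells, against 62.1 and 87.3 CPM in tubes. The log2 differences were 1.56 (SE 0.31, adjusted p = 0.0200) in new and 2.38 (SE 0.44, adjusted p = 0.0156) in old RNA by limma.

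Rps23, a small-subunit ribosomal protein, rose by 1.62 in new RNA (SE 0.34, BH-adjusted p = 0.0210 by limma) and by 2.24 in old RNA (SE 0.43, adjusted p = 0.0168) on the log2 scale. Its old RNA was 3874 and 1539 CPM in fixed cells, against 429 and 620.0 CPM in tubes, with fixed A the highest by far; without fixed A the differences were 0.97 and 1.58. Acta2, smooth muscle actin, rose by 1.61 in new RNA (SE 0.29, adjusted p = 0.0150 by limma), with 79.3 and 43.5 CPM in fixed cells, against 18.3 and 19.5 CPM in tubes. Fez1, a kinesin adaptor, rose by 1.88 and Ndufa13, of complex I, by 1.78, on new RNA of at most 20.6 CPM in fixed cells. Ndufa13 was no longer called with a minimum of 50 reads, and an exon of Tssk6 overlaps it on the opposite strand.

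The largest falls in new RNA are given in 2 sets, by whether old RNA was called, which does not test new against old RNA. In the first set, new RNA fell and old RNA did not pass the test. Gabbr1, a subunit of the GABA-B receptor (GRCm38 chromosome 17, 37045966 to 37075067, plus strand, protein coding), had 3.79 and 14.0 CPM of new RNA in fixed cells, against 46.8 and 52.97 CPM in tubes, a log2 difference of -2.67 (SE 0.46, BH-adjusted p = 0.0150 by limma). Its old RNA was 45.2 and 42.3 CPM in fixed cells, against 52.7 and 59.4 CPM in tubes, which did not pass the test (-0.35, adjusted p = 0.186). Its ratio was 7.74% and 24.9% in fixed cells, against 47.0% and 47.1% in tubes. Without fixed A its fall in new RNA was 1.80, and without 4sU its total RNA was also lower in fixed cells, by a log2 difference of -1.12. Zmiz2, a transcriptional coregulator, fell by 2.28 in new RNA, Man2b1, the lysosomal alpha-mannosidase, by 2.09, and Cc2d1b by 2.02, and the old RNA of none of these 3 passed the test. Their total RNA without 4sU differed by -0.20, -0.47 and -1.20 on the log2 scale. The fall of Zmiz2 was 1.20 without fixed A.

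In the second set, old RNA was also called lower. Neat1, the scaffold RNA of nuclear paraspeckles (GRCm38 chromosome 19, 5824708 to 5845478, minus strand, lincRNA), had 151 and 206 CPM of new RNA in fixed cells, against 954 and 1006 CPM in tubes. Its old RNA was 27.8 and 16.4 CPM in fixed cells, against 185 and 188 CPM in tubes. The differences were -2.47 (SE 0.22, BH-adjusted p = 0.00104) in new and -3.10 (SE 0.26, adjusted p = 0.0102) in old RNA by limma, while the ratio was 84.5% and 92.6% in fixed cells, against 83.7% and 84.3% in tubes. Without 4sU its total RNA differed by -2.64 on the log2 scale. Adgrl1, an adhesion receptor, fell by 2.34 in new RNA (7.55 and 14.4 CPM in fixed cells, against 60.1 and 50.1 CPM in tubes) and by 1.16 in old RNA. Its ratio was also lower in fixed cells, with 18.1% and 18.7%, against 36.2% and 32.9% in tubes.

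**Figure D4:**
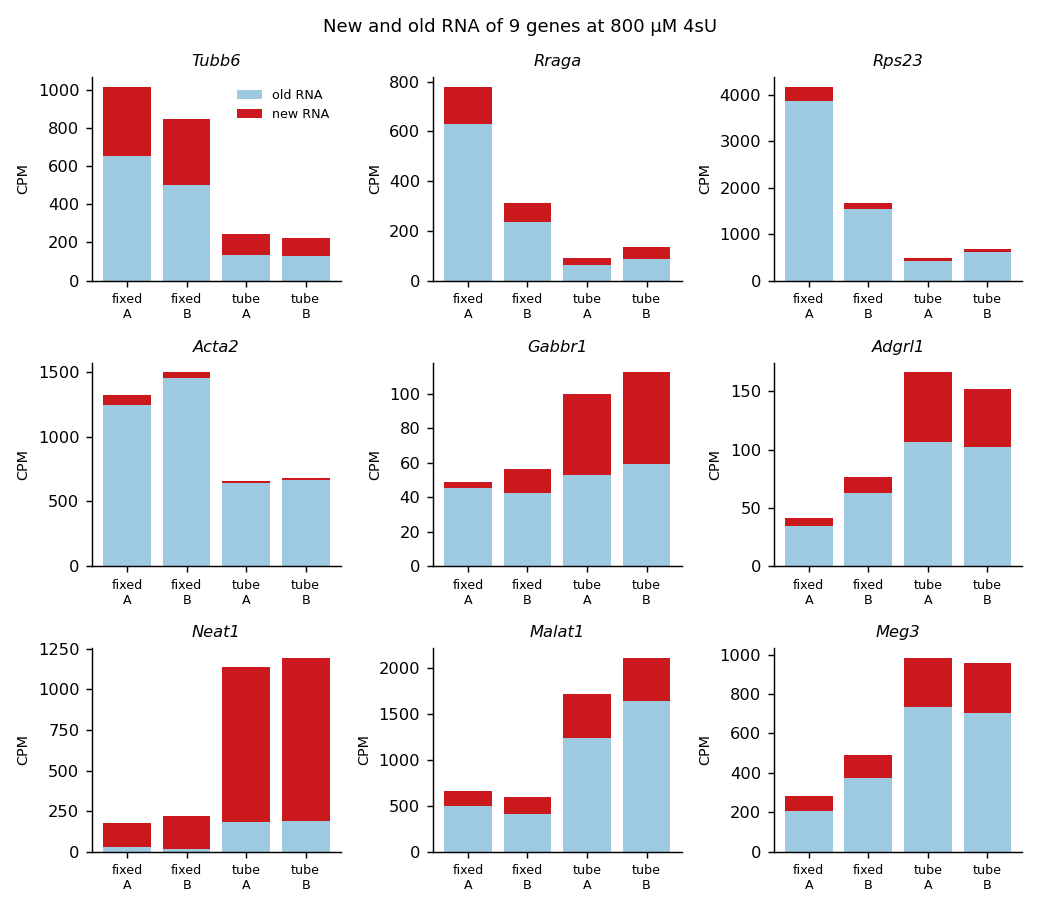
New RNA (red) stacked on old RNA (blue) in CPM (y axis, each panel with its own scale from 0) for 9 genes in the 4 libraries at 800 µM 4sU. Tubb6, Rraga, Rps23 and Acta2 are higher in fixed cells, Neat1, Malat1 and Meg3 are lower in both kinds of RNA, and Gabbr1 is lower mainly in new RNA (3.79 and 14.0 CPM against 46.8 and 52.97 CPM).

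Nuclear noncoding RNAs fell in both kinds of RNA in 3 of 6 measured members, Neat1, Malat1 and Meg3, and rose in 0, beside 8.6% and 4.01% of all genes lower in new and in old RNA. Malat1 had 164 and 187 CPM of new RNA in fixed cells, against 475 and 466 CPM in tubes, and fell by 1.42 in new and 1.66 in old RNA. Meg3, an imprinted noncoding RNA, fell by 1.41 and 1.37. All 3 were called without fixed A and with each kind of RNA scaled on itself. Their total RNA was also lower without 4sU, with log2 differences of -2.03 for Malat1 and -0.66 for Meg3. Small noncoding RNAs of other genes overlap these transcripts in GENCODE.

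Ribosomal protein genes rose in new RNA at 25 of 82 and in old RNA at 58 of 82, beside 1.78% and 18.9% of all genes, and none fell in either. Their median log2 difference was 0.57 in new and 1.16 in old RNA, beside -0.19 and 0.28 for all genes. Their total RNA without 4sU was higher at 65 of 82, beside 1529 of 5885 genes, with a median of 0.86. Without fixed A the medians were 0.46 in new and 0.87 in old RNA, beside -0.06 and 0.16 for all genes. Scaled on itself, new RNA rose at 46 and old RNA at 45, beside 324 and 496 of 5885 genes. Rps29 had 245 and 198 CPM of new RNA in fixed cells, against 115 and 107 CPM in tubes, and 4169 and 3431 CPM of old RNA, against 1439.9 and 1406 CPM. Rpl10a, by contrast, had new RNA of 170.4 and 235 CPM in fixed cells, against 278 and 274 CPM in tubes, which did not pass the test (-0.46, BH-adjusted p = 0.177 by limma). Its old RNA rose by 0.89, with 1449.7 and 1286 CPM in fixed cells, against 743 and 735 CPM in tubes.

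Nuclear genes of oxidative phosphorylation rose in new RNA at 8 of 74 and in old RNA at 53, and none fell, beside 1.78% and 18.9% of all genes higher in new and in old RNA. Mitochondrial ribosomal proteins rose in old RNA at 40 of 70, and in new RNA 1 rose (Mrps22) and 1 fell (Mrps34). Proteasome subunits rose in old RNA at 21 of 35 and fell at 1 (Psmd7), and 3 rose in new RNA (Psmb7, Psma5 and Psma2). Without fixed A, median log2 differences in old RNA were 0.79, 0.69 and 0.64 in these lists, beside 0.16 for all genes. In new RNA they were 0.34, 0.39 and 0.23, beside -0.06. With each kind of RNA scaled on itself, old RNA rose at 39, 20 and 12 members of these lists, beside 496 of 5885 genes. New RNA rose at 19, 13 and 8 of them, beside 324 of 5885. Usmg5, a small subunit of ATP synthase, had 650.0 and 263 CPM of old RNA in fixed cells, against 86.5 and 78.7 CPM in tubes, a rise of 2.32 (SE 0.38, BH-adjusted p = 0.0140 by limma).

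Of all genes, 18.9% were higher in old RNA, and 1.78% were higher and 8.6% lower in new RNA. Tubulins rose in old RNA at 7 of 10 and in new RNA at 1, Tubb6. Mitosis and spindle genes rose in old RNA at 14 of 27 and in new RNA at 2 (Ube2c and Cdk1). DNA replication genes rose in old RNA at 13 of 36. Their new RNA was lower at 2, Pola1 and Tyms, no more than the share of all genes. Pola1 had 6.66 and 4.75 CPM of new RNA in fixed cells, against 13.5 and 18.1 CPM in tubes, a fall of 1.40 (SE 0.36, BH-adjusted p = 0.0384 by limma). Its total RNA without 4sU differed by 0.02 on the log2 scale. Cenpa passed the test in old RNA alone (0.97, BH-adjusted p = 0.0107 by limma), with 179 and 178 CPM of old RNA in fixed cells, against 96.3 and 85.0 CPM in tubes, and 39.9 and 42.8 CPM of new RNA, against 40.8 and 38.0 CPM. Without fixed A, median log2 differences in old RNA of tubulins, mitosis and replication genes were 0.81, 0.54 and 0.40, beside 0.16 for all genes. In new RNA they were 0.45, 0.12 and 0.15, beside -0.06. With old RNA scaled on itself, it rose at 4, 4 and 5 members, beside 496 of 5885 genes.

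Extracellular matrix and secreted protein genes went the other way, with 8 of 33 lower and 0 higher in new RNA and 9 lower and 2 higher (Cst3 and Timp1) in old RNA. Of all genes, 8.6% were lower in new RNA, and 4.01% were lower and 18.9% higher in old RNA. Their median log2 difference was -0.58 in new and -0.33 in old RNA, and -0.25 in total RNA without 4sU. Col1a1, a chain of type I collagen named after its values were seen, had 109 and 256 CPM of new RNA in fixed cells, against 493 and 425 CPM in tubes, with a ratio of 20.3% and 22.9%, against 20.4% and 19.6%. Without fixed A, the medians of the matrix list were -0.30 in new and -0.33 in old RNA, beside -0.06 and 0.16 for all genes. Of the actin cytoskeleton list, Flna, filamin A, fell by 1.63 in new RNA and 0.78 in old RNA, while 2 of 28 rose in new RNA (Acta2 and Tmsb10) and 7 in old RNA, near the 18.9% of all genes. Scaled on itself, old RNA rose at 5 and fell at 4, beside 496 and 395 of 5885 genes. The median log2 difference in new RNA of the 28 was -0.03, and 0.24 without fixed A, beside -0.19 and -0.06 for all genes.

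SR splicing factors and Clk kinases fell in new RNA at 5 of 17 (Srsf11, Srsf9, Srrm1, Tra2a and Srrm2) and rose at 0, beside 8.6% of all genes lower. In old RNA 2 rose (Srsf5 and Srsf7) and 2 fell (Srsf9 and Srrm1), beside 18.9% and 4.01% of all genes. Tra2a fell by 1.23 in new RNA, with 27.6 and 53.9 CPM in fixed cells, against 87.2 and 95.1 CPM in tubes. Srsf5 had 84.9 and 120.4 CPM of new RNA in fixed cells, against 169 and 163 CPM in tubes (-0.71, BH-adjusted p = 0.0621 by limma), and its old RNA rose by 0.53. Scaled on itself, new RNA was lower at 3 of the 17 and higher at 1, and old RNA was higher at 0 and lower at 2. The median log2 difference in new RNA of the 17 was -0.51, and -0.31 without fixed A, beside -0.19 and -0.06 for all genes.

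Among immediate early genes, new RNA was lower at 4 of 28 (Cyr61, Fosl2, Zfp36l1 and Egr1) and higher at 1 (Gadd45b). Of all genes, 8.6% were lower and 1.78% higher in new RNA. Old RNA was lower at 1 (Fosl1), beside 4.01% of all genes. In old RNA of the 28, the median log2 difference was -0.01, and -1.45 without fixed A, beside 0.28 and 0.16 for all genes. The median log2 difference in new RNA of the 28 was -0.40, and -0.33 without fixed A, beside -0.19 and -0.06 for all genes. Kruppel-like factors had new RNA lower at 3 of 8 (Klf7, Klf3 and Klf9). Old RNA of such genes is the small remainder under a ratio near 100%, and Fosl1 had 0 and 0.718 CPM of it in fixed cells, against 18.4 and 20.8 CPM in tubes, so no fold is given. Of 3 measured histone genes, the near-identical copies Hist1h2ao and Hist1h2ap rose in new RNA by 0.96 each and cannot be told apart by their counts.

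Other lists gave few calls. Zmat3, a p53 target, fell by 1.57 in new and 0.80 in old RNA, and with all 4 libraries no other of the 10 p53 targets fell. The median log2 difference in new RNA of the 10 was -0.21, and -0.10 without fixed A, beside -0.19 and -0.06 for all genes. Hk2, hexokinase 2, was the 1 of 15 glycolytic genes lower in new RNA (-0.78), a call lost with new RNA scaled on itself. Old RNA rose at 4 of the 15 (Ldhb, Gapdh, Pfkl and Pgk1), beside 18.9% of all genes. Gapdh had 459 and 247 CPM of old RNA in fixed cells, against 149 and 162 CPM in tubes, a rise of 1.11 that was not called with a minimum of 50 reads or with old RNA scaled on itself. Actb had 907 and 1733 CPM of new RNA in fixed cells, against 2494 and 2422 CPM in tubes (-0.97, BH-adjusted p = 0.0609 by limma). Heat shock protein genes rose in old RNA at 6 of 16, beside 18.9% of all genes. In new RNA 1 rose (Cryab) and 1 fell (Hspa4l), with a median log2 difference of 0.29, and 0.18 without fixed A.

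The difference in new and in old RNA followed the length of the gene, and the ratio did not. From the shortest (341 to 1847 bases, deposited length) to the longest (5145 to 123179 bases) of 5 equal groups of 1177 genes, the median log2 difference in new RNA was 0.20, -0.04, -0.18, -0.36 and -0.61. Old RNA had 0.67, 0.42, 0.27, 0.13 and -0.08. Total RNA without 4sU had 0.50, 0.24, 0.09, -0.07 and -0.32, so the same order was present in unlabelled cells. The median logit difference of the ratio was -0.31, -0.31, -0.31, -0.32 and -0.32 in these groups. Across genes, Spearman's rho with length was -0.493 for new RNA, -0.428 for old RNA, -0.509 for total RNA without 4sU and -0.018 for the ratio (n = 5885, as a description). With the T content of the transcript, rho of the ratio's difference was -0.101 over 5879 genes. The ribosomal protein genes above had a median length of 1048 bases and the matrix genes 4692 bases, beside 3278 for all genes, and the part of length in their differences was not tested.

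Grouped by the mean ratio at 200 µM, which comes from other libraries, the lowest 4 groups had alike differences and the top group a smaller one. From the lowest (up to 20.5%) to the highest (68.0% and over), the median logit difference was -0.32, -0.33, -0.33, -0.32 and -0.25. Both fixed values lay below both tube values at 56.7%, 58.0%, 54.9%, 50.4% and 22.3% of the genes. Without fixed A the median differences were -0.18, -0.20, -0.18, -0.15 and 0.11, so the top group turned positive. On the scale of the ratio this was small, with a median in the top group of 83.29% in fixed B, against 81.35% and 81.71% in tubes. Old RNA differed by 0.52, 0.38, 0.24, 0.15 and 0.02, and new RNA by 0.04, -0.12, -0.24, -0.29 and -0.32. Total RNA without 4sU ran in the same order, at 0.37, 0.22, 0.06, -0.04 and -0.16.

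**Figure D5:**
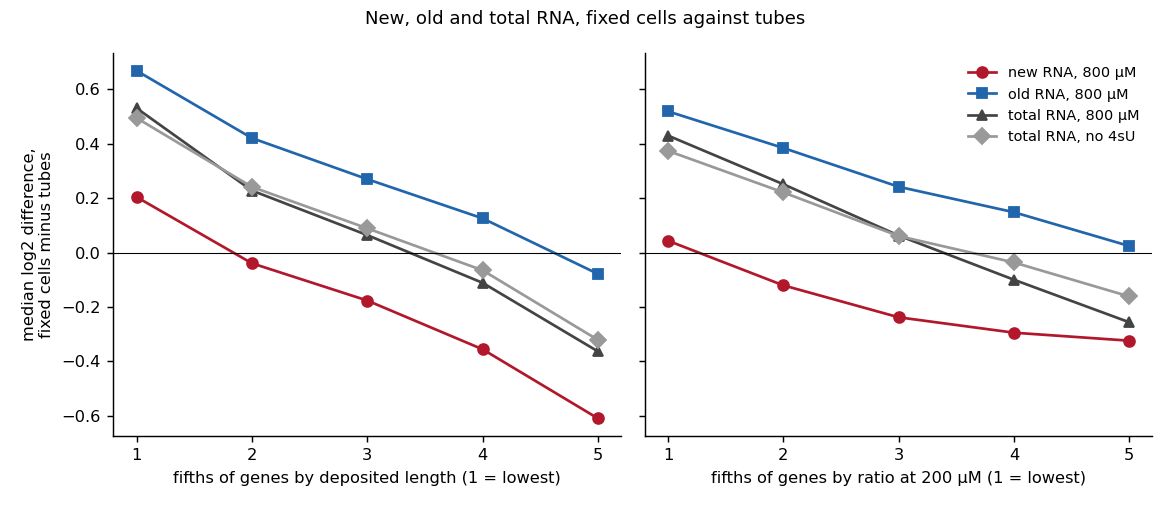
Median log2 difference, fixed cells minus tubes (y axis), of new, old and total RNA at 800 µM and of total RNA without 4sU, in 5 equal groups of genes by deposited length (left) and by ratio at 200 µM (right). All 4 lines fall from the shortest to the longest genes, with new RNA from 0.20 to -0.61 and total RNA without 4sU from 0.50 to -0.32.

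Whether the procedures differed more at 800 µM than at 200 µM was tested by an interaction term at the 5532 genes with at least 100 reads in all 8 libraries with 4sU. None was called (0%) by limma at a BH-adjusted p under 0.05, with 255 at an unadjusted p under 0.05 and a smallest adjusted p of 0.369. The median logit difference between fixed cells and tubes was -0.31 at 800 µM and -0.19 at 200 µM, and the median of the gene-wise change was -0.12. Without fixed A at 800 µM that median was 0.04. Without fixed B at 800 µM it was -0.29, and 3 genes were called.

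The smallest p values of the interaction went to genes in which the difference at 200 µM had the opposite sign or a far larger size. Dctn5 had a logit difference of -1.62 at 800 µM and 0.55 at 200 µM, an interaction of -2.17 (BH-adjusted p = 0.369 by limma). Ubac2 had 1.38 at 800 µM and -0.28 at 200 µM. Adamts1, a secreted protease, and Upf2, a nonsense-mediated decay factor, had -0.41 and -0.54 at 800 µM, and 3.91 and 3.78 at 200 µM. The mean ratios of Adamts1 and Upf2 at 200 µM were as high as 89.9% and 90.9%. For ratios close to the upper limit, the size of a logit difference depends on the bound of 0.005, so these values are not sizes of effect. Ctnnbl1 and Aldh9a1 had -0.12 and -0.02 at 800 µM, and -1.30 and -1.27 at 200 µM. None of these 6 passed the test.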

How the data were processed

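NIH-3T3 cells were profiled by SLAM-seq in 12 libraries, of which 4 are compared here. The read counts are the authors' expected counts per gene and library: 17.2% to 22.0% of the values in the 4 libraries are not whole, and the deposited table does not say how reads were divided. The new-to-total ratio is a fraction estimated by the authors, with its 0.05 and 0.95 quantiles, posterior mean and maximum a posteriori value (used here) in the deposited columns. Alpha and beta, deposited beside it, are scores that set the shape of the beta posterior. Reads were handled with STAR 2.7.10b, Bowtie2 2.3.0 and cutadapt, per the submitters' processing notes, whose roles are unstated. For the build, annotation, strand setting and ratio estimator, nothing is stated in the sources used. No ratio is given for libraries without 4sU, so it has no unlabelled background. Coordinates are those of GENCODE M21 (GRCm38), looked up by gene ID, which holds 15197 of the IDs and lacks 20.

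The ratio, held 0.005 from 0 and 1, was tested on the logit scale with limma 3.58.1 (trend, R 4.3.3), 2 fixed against 2 tube libraries, at genes with at least 100 reads in all 4, with BH adjustment over all of them at 0.05. New and old RNA were tested with limma on log2(CPM + 0.5), scaled by the TMM effective size of the total counts; fold changes are on that scale, which understates low genes. Total RNA was tested with edgeR 4.0.16 (quasi-likelihood F test, rounded counts, filterByExpr) in 1 fit of 12 libraries; DESeq2 1.42.0 was an alternative. Scripts were tested on simulated data. Fixed A and B, and tube A and B, differed beyond sampling noise (chi-square per degree of freedom 37.0 and 9.18). Library medians were compared by an exact permutation test.

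The 27 gene lists and the genes compared were chosen with earlier results of these data known. Genes were named by rule: the 6 largest rises and falls in new and old RNA past the threshold with groups that do not overlap, the 3 smallest p in each direction where none passed, in each list the 2 smallest p and the highest and lowest mean ratio, and Gapdh, Actb, Malat1, Myc and Fos, with Gm and Rik names passed over. Those the results turn on are printed. Rises in old RNA of Nipal1, with a tube ratio near 100%, and of the pseudogene Rpl23a-ps3 were named by the rule and are not described. Intervals are the authors' posterior intervals. Alternatives were the posterior mean, other minimums, bounds, weights, scalings, pseudocounts and tools, a replicate block, and each library left out.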

Additional observations from a re-analysis of the deposited data

How the results depend on the processing

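The ratio kept 0 calls and a negative median logit difference (-0.32 to -0.30) with the posterior mean, minimums of 50 and 200 reads, and a bound of 0.001; all 8 libraries in 1 fit also gave 0 calls. Precision weights gave 205 calls. Centring each library on its own median reversed the median logit difference to 0.032, by construction near 0. Leaving out a library gave 0 calls in the ratio, and medians of -0.50 to -0.14. The same omissions gave 25 to 2759 calls in new RNA, 0 to 2376 in old RNA, 2621 to 4109 in total RNA, 0 to 3 in the interaction, and -10.6 to -4.41 percentage points in the median ratio. Old RNA scaled on itself had 891 calls. Apart from the fits with a replicate block given below, the other alternatives changed no count by over 1.5 times, among them edgeR on rounded products for new RNA (578) and old RNA (1396), and DESeq2 for total RNA (3555). Each kind of RNA kept most of its calls when scaled on itself, 518 of 611 in new and 729 of 1347 in old RNA.

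Whether libraries with the same letter share more than the letter is not stated, and 2 libraries per group cannot show it. The A minus B deviations of fixed cells and tubes correlated at 0.006 in the ratio, -0.093 in new, -0.016 in old and -0.283 in total RNA. With the replicate block the ratio had 86 calls (1 higher and 85 lower in fixed cells), new RNA 841, old RNA 1391, total RNA 3790 and the interaction 0. In total RNA over the 4 libraries alone, the replicate block gave 2208 calls and the crossed pairing, chosen after seeing the data, 3654, against 2805 with neither.

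Of 140 results for single named genes, none that was called changed sign. None that was not called became a call in the opposite direction, and changes of sign without a call were not counted. Alternatives other than omissions gave 908 values counted as the same, 79 that moved, 30 that became calls and 15 that ceased to be. A called value counted as the same if it kept its call and sign, whatever its size. A value that was not called did so if it stayed within its SE, and moved if not. Omissions gave 490, 64, 4 and 38. Of the falls in old RNA that the rule names, Map1s, Zbtb20 and Cspg4 were no longer called with old RNA scaled on itself, a pseudocount of 0.1, edgeR or a minimum of 50, and are not described.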
